A study of Mus musculus with 4 samples.

Results

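Class II and IV histone deacetylases are 7 genes, taken here by symbol: Hdac4, Hdac5, Hdac7 and Hdac9 (class IIa), Hdac6 and Hdac10 (class IIb), and Hdac11 (class IV). Each probe set had to carry exactly 1 gene symbol in the platform annotation. All 7 genes were found, with 8 probe sets out of 35556, and they are 7 of 19938 genes that had a probe set with 1 symbol. Hdac4 had 2 probe sets and every other member 1, and no probe set with several symbols contained a member. Where a gene had several probe sets, the one with the highest mean over the 4 arrays stood for it.

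The data are RMA log2 signals from 4 one-colour Affymetrix arrays of the mouse embryonic stem cell line E14. In one group, 2 arrays came from untreated cells. In the other, 2 arrays came from cells that had 0.5 mM valproic acid (VPA), a small branched carboxylic acid and deacetylase inhibitor, in their medium for 4 h. Both groups were cultured with serum and leukemia inhibitory factor on embryonic fibroblasts inactivated with mitomycin C, so fibroblast RNA could be present in every sample. The labels number the replicates, but nothing says that they came from separate cultures, so p-values reflect no more than array-to-array spread, possibly technical. In such bulk RNA, fewer cells of a type and less RNA per cell cannot be told apart.

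Histone deacetylases are grouped by sequence. Class I enzymes are the nuclear deacetylases that VPA is best known to inhibit. Class IIa proteins carry a long amino-terminal region that binds MEF2 transcription factors, shuttle between nucleus and cytoplasm according to phosphorylation and 14-3-3 binding, and have little deacetylase activity of their own. Class IIb holds Hdac6, a mainly cytoplasmic deacetylase of alpha-tubulin and cortactin, and Hdac10, a polyamine deacetylase. Class IV has the single member Hdac11, a small enzyme that removes long fatty acyl groups from lysine. The comparison of VPA with untreated cells asks whether transcripts of this wider family differed within hours of a deacetylase inhibitor. HDAC6 and HDAC10 are not among its known targets.

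No class II or IV deacetylase transcript passed the test between VPA and untreated cells. With limma and Benjamini-Hochberg adjustment over all 35556 probe sets, 0 of 7 members were called, where 0% of all probe sets were called. The members' adjusted p ran from 0.757 to 0.995. At an unadjusted p under 0.05 there were 0 of 7 members, against 3269 probe sets or 9.19% of all. The arrays of the groups overlapped for the main probe set of all 7 members, whereas 40.4% of all probe sets had groups that did not overlap. The median difference over the members was −0.035 on the log2 scale (VPA minus untreated), beside 0.0078 over all probe sets, with 2 members above 0 and 5 below. This median was −0.10 after a second quantile normalization, −0.0039 with Hdac4 as the mean of its probe sets, −0.16 without VPA replicate 1 and 0.064 without VPA replicate 2. With 2 arrays per group, the smallest p an exact permutation test allows is 0.33.

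The intervals show what sizes of change the arrays could not separate from none. In all 7 members the 95% interval of the difference lay within a 2-fold change in either direction, as it did for 92.6% of all probe sets. It lay within 1.5-fold for 4 members, against 66.1% of all probe sets.

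**Figure D1:**
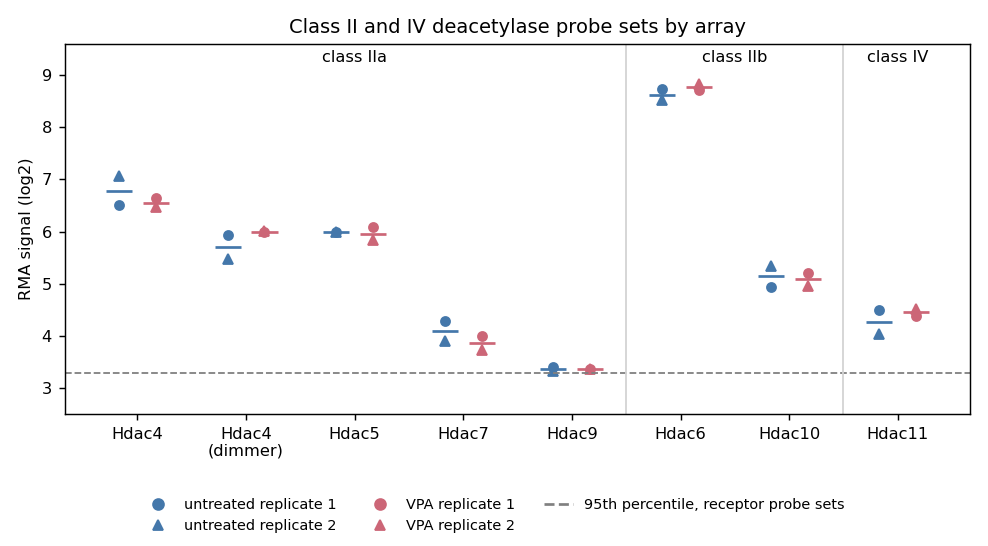
RMA signal (log2) of the 8 probe sets of the 7 deacetylases on each array, untreated in blue and VPA in red, with replicate 1 as circles and replicate 2 as triangles. Horizontal bars are group means of 2 arrays, and the dashed line at 3.28 is the 95th percentile of probe sets for olfactory and vomeronasal receptors, genes mostly unexpressed outside sensory epithelium; in every main probe set the groups overlap.

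To judge whether the members were detectable, their untreated level was set beside probe sets of olfactory and vomeronasal receptor genes, which are mostly unexpressed outside sensory epithelium. The 1210 such probe sets had a median untreated signal of 2.53 (log2) and a 95th percentile of 3.28. All 7 members lay above that percentile. Hdac9 was closest to it, at 3.36, and 96.4% of the receptor probe sets were lower. Hdac6 at 8.63 and Hdac4 at 6.78 exceeded the highest receptor probe set, at 6.07, and the other 5 members did not. Over all probe sets, the untreated signal of Hdac6 stood at percentile 91.9, Hdac4 at 80.0, Hdac5 at 73.4, Hdac10 at 65.8, Hdac11 at 56.7, Hdac7 at 54.4 and Hdac9 at 41.3. Signals of different probe sets depend on probe sequence as well as on RNA, so this order is not an order of transcript abundance.

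**Figure D2:**
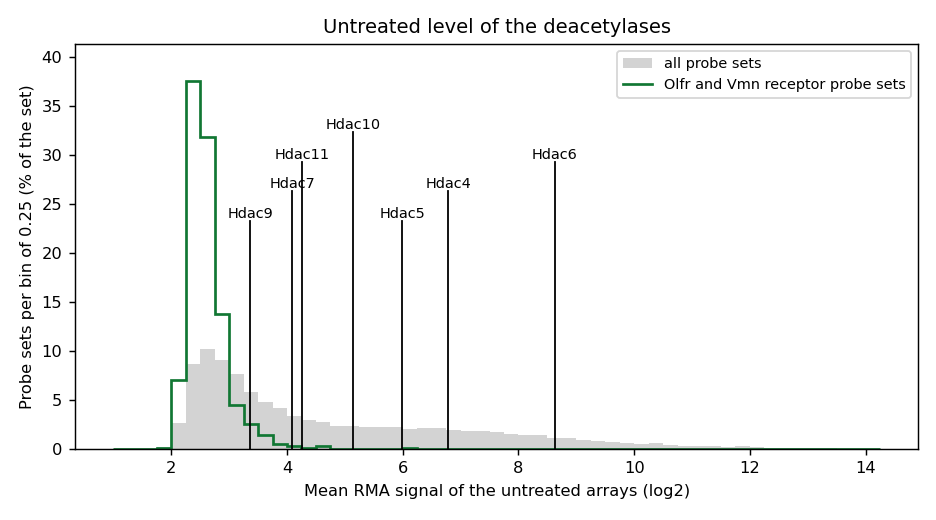
Mean untreated signal (log2 RMA) of the 7 deacetylases, drawn as labelled vertical lines whose heights have no meaning, over the distribution of all 35556 probe sets (grey) and of 1210 olfactory and vomeronasal receptor probe sets (green), each as a percentage of its set per bin. Hdac9 at 3.36 lies in the upper tail of the receptor distribution and Hdac6 at 8.63 lies beyond it.

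RefSeq promoter windows (GRCm38.p6) reach from 250 bases before a gene's start to 50 after it, and 10 windows were matched for 6 of the members, all except Hdac10. Windows are shown for Hdac6 and Hdac9 because these members had the highest and the lowest signal, and for Hdac5 because it alone held a MEF2 match. In the Hdac6 and Hdac9 windows, all on the minus strand and read 5′ to 3′, CG dinucleotides are in capitals.
Hdac6, chrX:7947840-7948139: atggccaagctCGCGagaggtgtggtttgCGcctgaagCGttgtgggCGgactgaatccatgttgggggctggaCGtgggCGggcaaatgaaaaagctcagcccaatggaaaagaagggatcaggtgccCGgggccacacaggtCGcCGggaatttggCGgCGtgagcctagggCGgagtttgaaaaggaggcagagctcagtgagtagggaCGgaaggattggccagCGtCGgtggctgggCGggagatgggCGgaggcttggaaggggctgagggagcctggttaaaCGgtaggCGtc
Hdac9 first start, chr12:34917046-34917345: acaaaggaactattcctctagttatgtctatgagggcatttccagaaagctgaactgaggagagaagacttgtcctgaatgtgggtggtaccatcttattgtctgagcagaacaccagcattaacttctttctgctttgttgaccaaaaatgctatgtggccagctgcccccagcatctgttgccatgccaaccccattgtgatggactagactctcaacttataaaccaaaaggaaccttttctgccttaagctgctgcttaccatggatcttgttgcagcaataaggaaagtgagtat
Hdac9 second start, chr12:34528840-34529139: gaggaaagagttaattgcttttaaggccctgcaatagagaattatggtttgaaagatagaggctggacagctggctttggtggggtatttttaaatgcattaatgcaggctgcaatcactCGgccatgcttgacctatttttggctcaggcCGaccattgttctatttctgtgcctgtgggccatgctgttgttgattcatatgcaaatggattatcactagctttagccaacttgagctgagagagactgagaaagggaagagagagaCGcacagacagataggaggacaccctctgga
The Hdac6 window held 20 CG dinucleotides, against a median of 7 over all 32851 windows, and the Hdac9 windows held 0 and 3. Of the other members' windows, Hdac4 had 32, Hdac11 had 22 and Hdac5 had 18. The 4 Hdac7 windows had 35, 31, 6 and 5, so alternative starts of the same gene differed widely. A GC box (GGGCGG, either strand) occurred 5 times in the Hdac6 window and 5 times in that of Hdac4, 0 times in both Hdac9 windows, and in 35.7% of all windows. The CCAAT motif (either strand) occurred 2 times each for Hdac4, Hdac5 and Hdac6, 0 times for Hdac9, and in 37.4% of all windows.

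MEF2 factors are the main DNA-binding partners of class IIa enzymes, so the windows were searched for the palindromic MEF2 consensus on both strands. It was found in 0.557% of all windows. Among the members' windows it occurred 1 time, in that of Hdac5, whose minus-strand window is printed 5′ to 3′ with the match in capitals.
Hdac5, chr11:102230123-102230422: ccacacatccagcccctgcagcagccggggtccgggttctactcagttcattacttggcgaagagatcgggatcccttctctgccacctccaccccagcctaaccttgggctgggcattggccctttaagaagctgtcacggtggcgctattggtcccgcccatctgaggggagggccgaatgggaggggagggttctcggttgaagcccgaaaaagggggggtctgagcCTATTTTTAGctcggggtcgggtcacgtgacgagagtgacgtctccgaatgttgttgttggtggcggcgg
The match begins 20 bases before the annotated start. These letters describe the sequence and do not show that a factor was bound.

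Among class IIa genes, Hdac4 encodes a corepressor of MEF2 best known from muscle, bone and neurons. Its brighter probe set (10356628) read 6.50 and 7.06 in the untreated arrays and 6.64 and 6.47 in the VPA arrays. Untreated replicate 2 was the highest of the 4, and the remaining arrays lay close together. The means were 6.78 ± 0.39 and 6.55 ± 0.12 (SD, n = 2), a difference of −0.23 ± 0.21 (SE) with a 95% interval from −0.78 to 0.32 and an adjusted p of 0.783 in limma. Without untreated replicate 2 the difference was 0.049, so that array set its sign.

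The dimmer Hdac4 probe set (10356626) differed the opposite way. It read 5.924 and 5.465 in untreated cells and 5.995 and 6.003 with VPA. Here untreated replicate 2 was the lowest array, and the groups did not overlap. Its difference was 0.30 ± 0.18 (SE), with an interval from −0.16 to 0.77 and an adjusted p of 0.655 in limma. The annotation pairs the brighter probe set with 4 transcript accessions and the dimmer with 3, of which 2 are shared. On each array the brighter probe set exceeded the dimmer, by 0.58 and 1.60 in untreated replicates 1 and 2 and by 0.64 and 0.47 in VPA replicates 1 and 2. The gap was therefore alike on 3 arrays and wider on untreated replicate 2. Between groups it differed by −0.53, with a two-sided exact permutation p of 0.67. The mean of both probe sets differed by 0.038 between groups, so neither direction held for the gene.

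**Figure D3:**
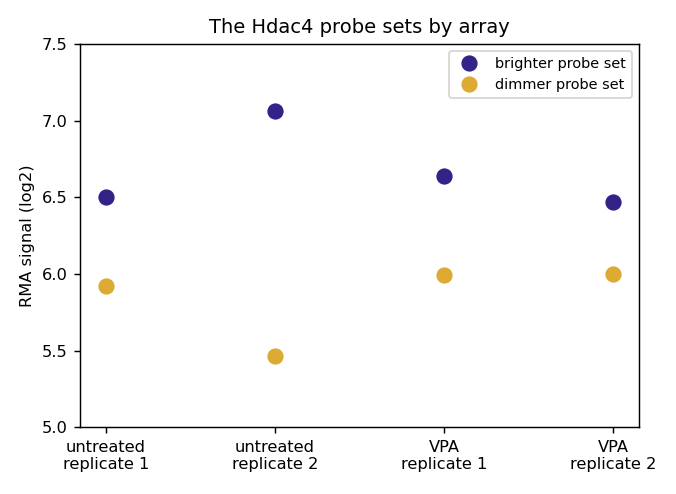
RMA signal (log2) of the 2 Hdac4 probe sets on each of the 4 arrays, 1 point per array. On untreated replicate 2, the brighter probe set reached 7.06 and the dimmer read 5.46, a gap of 1.60, against gaps of 0.47 to 0.64 on the other arrays.

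Hdac5, a close relative of Hdac4 that also represses MEF2-dependent genes, read 5.995 and 5.989 in untreated cells and 6.078 and 5.836 with VPA. The VPA arrays lay on either side of the untreated pair. Its difference was −0.035 ± 0.13 (SE), with an interval from −0.37 to 0.30 (adjusted p = 0.958 in limma). The untreated replicates differed by 0.0059, at percentile 2.49 of such gaps over all probe sets, and the VPA replicates by 0.24. Without VPA replicate 2 the difference was 0.086.

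Hdac7, which is known for roles in endothelium and thymocytes, read 4.29 and 3.89 in untreated cells and 4.00 and 3.73 with VPA. Untreated replicate 1 was the highest array and VPA replicate 2 the lowest, and the other two lay between them in overlapping order. The means were 4.09 ± 0.28 and 3.87 ± 0.19 (SD, n = 2). The difference was −0.22 ± 0.18 (SE), with an interval from −0.70 to 0.25 and an adjusted p of 0.757 in limma. Without untreated replicate 1 it was −0.025.

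Hdac9, the fourth class IIa gene, whose transcription MEF2 is known to activate in muscle, read 3.40 and 3.33 in untreated cells and 3.36 and 3.35 with VPA. Both VPA arrays lay between the untreated ones. Its difference was −0.0039 ± 0.11 (SE), with an interval from −0.28 to 0.27 (adjusted p = 0.995 in limma). Its sign turned after a second quantile normalization (0.0078) and without untreated replicate 1 (0.030) or VPA replicate 2 (0.0021). At a level so near that of the receptor probe sets, a flat signal does not show that the transcript was present or stable.

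Of the class IIb genes, Hdac6 was the brightest member. It read 8.73 and 8.52 in untreated cells and 8.71 and 8.84 with VPA. Untreated replicate 2 was the lowest array and VPA replicate 2 the highest, and the other two arrays lay close together between them. The means were 8.63 ± 0.15 and 8.77 ± 0.095 (SD, n = 2), a difference of 0.15 ± 0.13 (SE) with an interval from −0.19 to 0.48 and an adjusted p of 0.776 in limma. As a fold this was 1.11, with an interval from 0.876 to 1.40. Without untreated replicate 2 the log2 difference was 0.040.

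Hdac10, the polyamine deacetylase, read 4.94 and 5.35 in untreated cells and 5.21 and 4.96 with VPA. Both VPA arrays lay between the untreated ones. The difference was −0.059 ± 0.18 (SE), with an interval from −0.53 to 0.41 (adjusted p = 0.950 in limma). It was 0.14 without untreated replicate 2 and 0.064 without VPA replicate 2.

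Hdac11, the class IV enzyme, read 4.50 and 4.03 in untreated cells and 4.39 and 4.52 with VPA. Untreated replicate 2 was the lowest array and the remaining arrays lay close together. The means were 4.26 ± 0.34 and 4.45 ± 0.095 (SD, n = 2), a difference of 0.19 ± 0.19 (SE) with an interval from −0.30 to 0.67 and an adjusted p of 0.801 in limma. Without untreated replicate 2 the difference was −0.048.

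By class, the main probe sets of all 4 class IIa genes had a lower mean with VPA (median difference −0.13), except Hdac9 after a second quantile normalization. Leaving out 1 array turned the sign of Hdac4, Hdac5 or Hdac9, so the shared direction was not stable. Class IIb had 1 higher and 1 lower, and class IV was higher. None of these differences passed the test, and over all probe sets 17150 of 35556 had a lower mean. Class I genes, the better known VPA targets, all had a higher mean, with a median difference of 0.17 over 4 genes, and also under both other scalings. Hdac3 was the only one of them at an unadjusted p under 0.05 (0.30 ± 0.11, SE, adjusted p = 0.517 in limma). At that p, 5.76% of all probe sets were higher. Probe sets at or above the median mean signal had a median difference of 0.032, with 1519 higher and 764 lower at that p. The difference between classes was not tested.

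**Figure D4:**
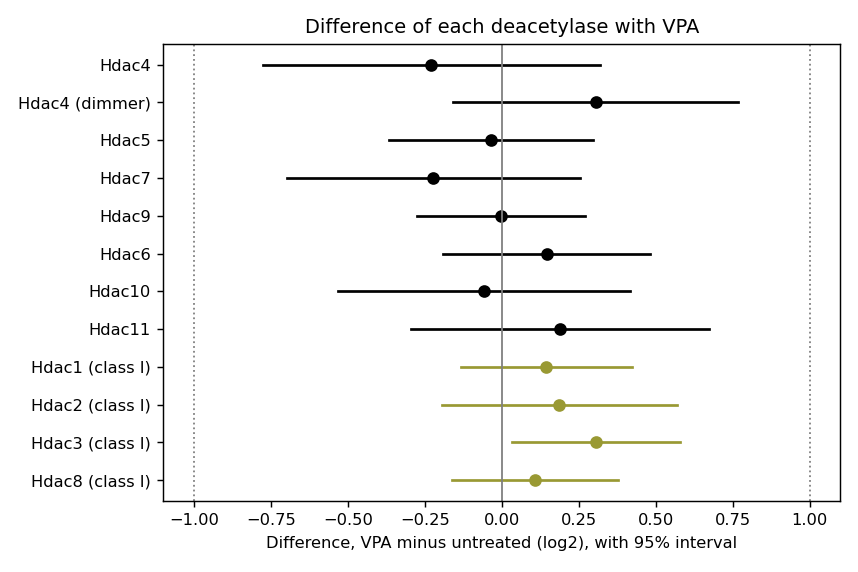
Difference between VPA and untreated cells (log2) for each deacetylase, with its 95% interval from limma over 4 arrays, in black for class II and IV and in olive for class I. Dotted lines mark a 2-fold change in either direction; the intervals of all 7 members include 0.

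Untreated replicate 2 stood at an end of the 4 arrays, highest or lowest, in 5 of 7 members, as did VPA replicate 2 in 5. Over all probe sets these shares were 57.5% and 50.9%. Untreated replicate 2 was also the array least like the others, with an SD over probe sets of its difference from another array between 0.311 and 0.360, where the remaining pairs lay between 0.285 and 0.301. The gap between the untreated replicates was largest in Hdac4 (0.56, at percentile 93.3 of all probe sets), Hdac11 (0.47, percentile 90.2), Hdac10 (0.41, percentile 86.1) and Hdac7 (0.40, percentile 85.4). The VPA replicates lay closer in each of these 4, with gaps between 0.13 and 0.27 (percentiles 49.7 to 77.2). These 4 were picked for a large untreated gap, so a smaller VPA gap carries little meaning. In Hdac5 the order was the reverse, with gaps of 0.0059 in untreated and 0.24 in VPA replicates.

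The genes that control, partner or receive the action of these enzymes were measured in 7 lists with 139 different names. Of these, 124 had a probe set with 1 symbol. With limma, 0 of the 124 were called over all probe sets. At an unadjusted p under 0.05, 8 were higher and 1 lower, together 7.26% of them, beside 5.76% higher and 3.43% lower over all probe sets. Groups did not overlap for 41.9% of the 124, close to the 40.4% of all probe sets. The median difference was 0.013.

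Class IIa kinases and phosphatases set whether these proteins stay in the nucleus. Of 20 genes measured, 12 had a higher and 8 a lower mean, with a median difference of 0.013. Prkaa2, a catalytic subunit of AMP-activated kinase, read 5.90 and 5.72 in untreated cells and 6.23 and 6.39 with VPA, a difference of 0.50 ± 0.13 (SE, adjusted p = 0.485 in limma). It was the only gene of that list at an unadjusted p under 0.05, which 9.19% of all probe sets reached. Prkd2, a protein kinase D, differed by 0.34 ± 0.15 and Mark2 by −0.17 ± 0.12. For the 14-3-3 proteins, which hold phosphorylated class IIa enzymes in the cytoplasm, and the exporter Xpo1, 5 of 8 genes had a lower mean and 0 reached that p. Sfn, Ywhae and Ywhag had the smallest p, with differences of −0.18, −0.16 and −0.14.

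Of the class IIa DNA-binding partners and corepressors, 19 of 24 names were measured, with 9 higher, 10 lower and a median difference of −0.0011. Foxo1, a transcription factor that class IIa enzymes deacetylate through Hdac3, read 6.95 and 6.93 in untreated cells and 7.33 and 7.31 with VPA, a difference of 0.38 ± 0.10 (SE, adjusted p = 0.487 in limma). Ankra2, an ankyrin-repeat protein that binds class IIa enzymes, differed by 0.46 ± 0.14 and the corepressor Ctbp2 by −0.27 ± 0.11. The other names of that list were not analysed here.

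Genes reported as MEF2 or class IIa targets included 11 with a higher and 13 with a lower mean among 24 measured. The glucose transporter gene Slc2a4 had the smallest p of all the lists. It read 3.62 and 3.83 in untreated cells and 4.41 and 4.28 with VPA, a difference of 0.62 ± 0.13 (SE, adjusted p = 0.472 in limma). Klf6 differed by −0.30 ± 0.13 and the muscle creatine kinase gene Ckm by −0.28 ± 0.12. At an unadjusted p under 0.05, 1 was higher and 0 lower, beside 9.19% of all probe sets in both directions together. Groups did not overlap for 4 higher and 8 lower genes, beside 21.7% and 18.7% of all probe sets.

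HDAC6 substrates and partners had 17 higher and 7 lower means among 24 measured of 28 names, with a median difference of 0.063. Over all probe sets, 18399 of 35556 had a higher mean. Probe sets at or above the median mean signal had a median difference of 0.032. Cyld, a deubiquitinase that binds HDAC6, read 5.588 and 5.542 in untreated cells and 6.004 and 6.352 with VPA, a difference of 0.61 ± 0.15 (SE, adjusted p = 0.479 in limma). The substrates cortactin (Cttn) and peroxiredoxin 2 (Prdx2) both differed by 0.28 and did not reach an unadjusted p under 0.05.

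In the polyamine pathway on which HDAC10 acts, 7 genes had a higher and 10 a lower mean among 17 measured of 22 names. Oaz2, an antizyme that inhibits ornithine decarboxylase, read 6.22 and 6.19 in untreated cells and 6.81 and 6.63 with VPA, a difference of 0.52 ± 0.12 (SE, adjusted p = 0.472 in limma). Eif5a, whose protein carries the spermidine-derived residue hypusine, read 11.31 and 11.40 in untreated cells and 11.07 and 10.98 with VPA, a difference of −0.33 ± 0.11 (adjusted p = 0.508). Odc1, ornithine decarboxylase itself, differed by −0.14 ± 0.11.

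HDAC11 partners and reported targets had 7 higher and 5 lower means among 12 measured of 13 names. Cav1, a caveolar protein, differed by 0.44 ± 0.12 (SE) and Stat3, which transmits the leukemia inhibitory factor signal in these cells, by 0.34 ± 0.11, with adjusted p of 0.494 and 0.504 in limma. Gas1 differed by −0.27 ± 0.12.

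**Figure D5:**
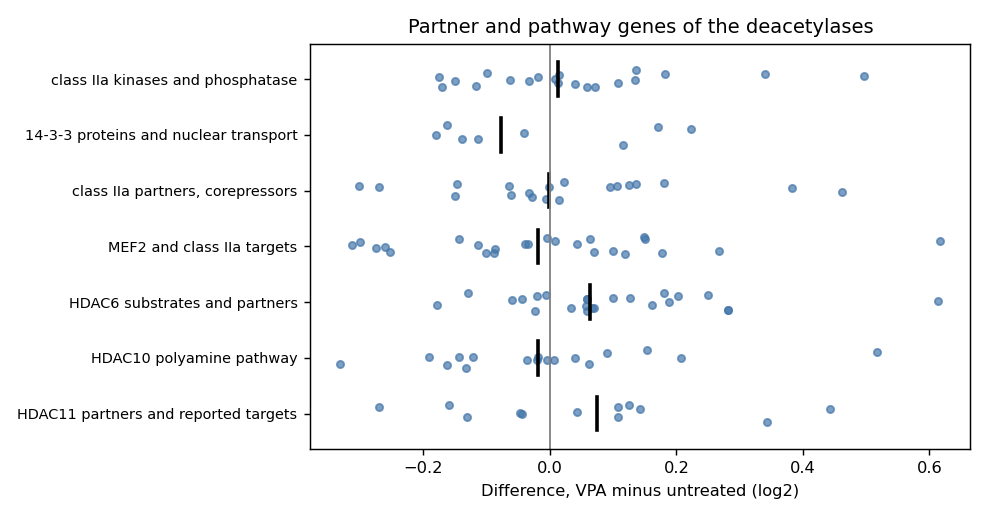
Difference between VPA and untreated cells (log2) of each measured gene in 7 lists of partner and pathway genes, 1 point per gene with vertical jitter, and the list median as a black bar. The medians lie between −0.077 (14-3-3 proteins and nuclear transport) and 0.075 (HDAC11 partners and reported targets).

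Neighbouring genes were taken by RefSeq order, as the nearest gene on each side that had a probe set with 1 symbol. Of 14 neighbours, 0 were called and 5 were higher and 3 lower without overlap of the groups, beside 21.7% and 18.7% of all probe sets. Beside Hdac5, G6pc3, a glucose-6-phosphatase subunit, read 4.84 and 4.73 in untreated cells and 5.45 and 5.33 with VPA, a difference of 0.61 ± 0.12 (SE, adjusted p = 0.462 in limma), while Hdac5 itself differed by −0.035. Hrob, on its other side, differed by 0.048. Hdac6 lies between Eras, an embryonic stem cell Ras gene, and Gata1, with differences of −0.28 ± 0.22 and −0.079 ± 0.13. Hdac7 lies between Rapgef3 (−0.35 ± 0.16) and Vdr (−0.29 ± 0.15) and overlaps Slc48a1 in RefSeq, which differed by 0.25 ± 0.11. Whether the probes distinguish the strands there was not tested. For Hdac4 the neighbours Twist2 and Ndufa10 differed by −0.021 and 0.11, and for Hdac9 Twist1 and Prps1l1 by −0.14 and 0.21. Tubgcp6 and Mapk12 beside Hdac10 differed by −0.092 and 0.30, and Nup210 and Fbln2 beside Hdac11 by −0.27 and 0.068.

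The gene with the array pattern nearest to each member was found by the root mean square distance of the 4 values after each gene's mean was subtracted. It was Gmnc for Hdac4 (0.015 on the log2 scale), Cisd1 for Hdac5, Bloc1s6 for Hdac6, Gpr83 for Hdac7, Capn13 for Hdac9, Bad for Hdac10 and Kbtbd8 for Hdac11 (0.0097). With 4 arrays such likeness is common: between 300 genes (Hdac7) and 7591 genes (Hdac9) lay within 0.1 of a member.

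The labelled cell type was checked against markers. All 15 embryonic stem cell markers measured lay above the 95th percentile of receptor probe sets, with Dppa5a brightest at 12.52 in untreated cells. Between groups, 11 of the 15 had a lower mean with VPA and the median difference was −0.11. At an unadjusted p under 0.05, 0 were higher and 4 lower, beside 5.76% and 3.43% of all probe sets, and 0 were called in limma. These were Nanog (−0.48 ± 0.14, SE), Sall4 (−0.43 ± 0.11), Lin28a (−0.34 ± 0.12) and Utf1 (−0.33 ± 0.12), chosen after their values were seen. The 4 markers with a higher mean were Sox2 (0.20 ± 0.19), Tdgf1 (0.12 ± 0.11), Dppa5a (0.11 ± 0.13) and Dppa4 (0.017 ± 0.12). Fibroblast feeder markers lay above the 95th percentile of receptor probe sets in 21 of 24 genes, with Fn1 brightest at 9.98. Of the 24, 7 had a higher and 17 a lower mean with VPA. At an unadjusted p under 0.05 in limma, 1 was higher and 1 lower, beside the same 5.76% and 3.43% of all probe sets. The higher was Thy1 (0.31 ± 0.12, SE) and the lower Ccdc80 (−0.31 ± 0.11). The summed linear signal of the feeder list was 2488 and 2686 in untreated arrays and 2477 and 2392 in VPA arrays. Muscle markers, a tissue where class IIa genes are active, summed to 205 and 214 in untreated arrays and 188 and 176 with VPA. Of these markers, 9 of 12 had a lower mean, beside 17150 of all 35556 probe sets. Myog, Ckm and Actc1, all with a lower mean, are also in the list of reported MEF2 and class IIa targets. The lower means in those lists are therefore not separate observations for these genes. Neuronal markers summed to 960 and 911 against 958 and 1034, and 4 of 12 had a lower mean. Endothelial and blood markers summed to 275 and 256 against 294 and 294, and 7 of 11 had a lower mean. Such sums weigh the brightest genes most, such as Stmn2 at 9.42 in untreated cells among the neuronal markers. At an unadjusted p under 0.05 in limma, muscle markers had 0 higher and 1 lower, Tnnt2 (−0.43 ± 0.13, SE). Neuronal markers had 0 in either direction. Endothelial and blood markers had 1 higher, Tek (0.30 ± 0.11), and 1 lower, Kdr (−0.40 ± 0.14). Over all probe sets the shares were again 5.76% and 3.43%. The part of these cells in the deacetylase signals was not tested.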

How the data were processed

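The authors deposited log2 signals for each probe set. Per the submitters' processing notes, Affymetrix Expression Console 1.1 and RMA were used. The method includes a background correction, a quantile normalization and a summary over probes, which can shrink differences shared by most genes. Which arrays were normalized together and the genome build are not given in the sources used here. Array medians lay between 3.80 and 3.82. Groups were taken from the sample titles.

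All 35556 probe sets were fitted in R 4.3.3 with limma 3.58.1 (lmFit, then eBayes), with treatment as the only term, two-sided, with Benjamini-Hochberg adjustment over all probe sets and a threshold of 0.05. Moderation raised the 2 residual degrees of freedom by 2.93. The number of arrays limits the precision.

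Gene symbols came from the platform annotation: 21789 probe sets had 1 symbol, 1621 several and 12146 none. RefSeq tables (GRCm38.p6) gave neighbours and promoters. Besides the members, the 3 genes of smallest p per pathway list, both neighbours and the nearest pattern were named. From the marker lists, genes at an unadjusted p under 0.05 were named. The brightest gene was named for the stem cell, feeder and neuronal lists. Stem cell markers with a higher mean, and genes shared by the muscle and MEF2 target lists, were named too. The members and lists were chosen with earlier results of these data known. Alternatives were other scalings, a filter on dim probe sets, trend and robust moderation, single-symbol probe sets, mean probe sets, a replicate block and leaving out each array.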

Additional observations from a re-analysis of the deposited data

How the results depend on the processing

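Under each of the 11 alternatives limma called 0 probe sets, and 0 of the members' 76 alternative values were called. Their adjusted p ran from 0.405 to 1.00 and the smallest unadjusted p was 0.031, for Hdac4 without untreated replicate 1. At an unadjusted p under 0.05 the probe sets numbered 1670 higher and 1542 lower after a second quantile normalization, against 2049 and 1220. Of the 76 values 9 changed sign. Hdac4 was 0.038 with the mean over its probe sets, and Hdac9 was 0.0078 after the second quantile normalization. The other changes of sign came from leaving out 1 array. Over those fits Hdac4 ran from −0.51 to 0.049, Hdac5 from −0.16 to 0.086, Hdac9 from −0.038 to 0.030, Hdac10 from −0.26 to 0.14 and Hdac11 from −0.048 to 0.43. Hdac6 (0.040 to 0.25) and Hdac7 (−0.42 to −0.025) kept their direction under all alternatives run. The members' median was −0.16 when VPA replicate 1 was left out and 0.064 when VPA replicate 2 was, the extremes of these fits. With 1 array left out, the lone array of a group is assumed to vary like the others. Hdac9 fell under the filter on dim probe sets and has no value there.

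The replicate block gave 0 called probe sets, and the count at an unadjusted p under 0.05 went from 2049 and 1220 to 1677 higher and 899 lower. The deviations of same-numbered arrays had a correlation of −0.097 over probe sets. This compares a single replicate difference per group, so it cannot tell whether same-numbered samples shared a culture or a day. The labels do not say.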
